A study of Mus musculus with 4 samples.

Results

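The axonemal dynein heavy chains are the motor subunits of the dynein arms that bend cilia and sperm tails, and 10 genes of this family were studied here, namely Dnah1, Dnah2, Dnah3, Dnah5, Dnah6, Dnah7a, Dnah7b, Dnah8, Dnah17 and the related Dnhd1. They were chosen by name, with earlier results of these data known. A cluster of IGF2BP3 eCLIP-seq reads was given to one of them when its centre lay inside the span of the gene on the strand of the gene (GENCODE M21, mm10). By this rule the 10 genes, out of 12292 protein-coding genes with a cluster in both replicates, held 1578 of 337234 clusters in replicate 1 and 1185 of 216354 clusters in replicate 2. The tissue was testis, with its germ cells and somatic cells, from 8-week-old wild-type mice of the strain C57BL/6, given as C57BL/6J in the treatment protocol. The mice received no agent. Each of the 2 replicates paired 1 library of RNA pulled down with the IGF2BP3 antibody after crosslinking with ultraviolet light (IP) with 1 library of size-matched input RNA taken without antibody (SMInput), 4 samples in all. The comparison of IP with SMInput asks where on the RNA IGF2BP3 was bound.

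Dynein heavy chains carry a tail that joins the other subunits of an arm and a ring-shaped motor that hydrolyses ATP and walks on the neighbouring microtubule doublet. Outer arms set the beat frequency of the tail and inner arms shape the bend, and the loss of single heavy chains such as DNAH1 or DNAH17 leaves men infertile with immotile or malformed sperm tails. The mRNAs are among the longest of the testis, since each heavy chain is a very large protein.

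Markers of germ cells and of somatic cells of the testis had clusters in these libraries. Clusters in both replicates were found for 6 of 6 spermatid genes, 3 of 3 spermatocyte genes, 5 of 5 Leydig cell genes and 3 of 4 Sertoli cell genes, the Sertoli exception being Rhox5, with 5 and 0 clusters. Motile cilia also stand on epithelial cells outside the seminiferous tubules, and of 4 genes of multiciliated epithelium only Foxj1, which spermatids express too, had clusters in both replicates. Sntn and Cdhr3 had 0 clusters in either replicate, and Mcidas had 0 and 2. The red blood cell genes Hba-a1 and Hbb-bs had 1 and 2 clusters in replicate 1, at a median log2 fold change of −5.37 and −4.16, and 0 in replicate 2.

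A cluster was called when the authors' log2 fold change of IP over SMInput was at least 2 and their −log10 P at least 2, the thresholds of the study's methods. Across all clusters, 4.92% were called in replicate 1 and 13.2% in replicate 2. The 10 dynein genes had 31 called clusters of 1578 in replicate 1 (1.96%, 95% Wilson interval 1.39% to 2.77%) and 60 of 1185 in replicate 2 (5.06%, 3.95% to 6.46%), below the share over all clusters in either replicate. These intervals, and those that follow, cover counting error only. Clusters are not replicates, so the counts of calls are given as a description beside the same count over all clusters, and a paired test over the 2 replicates is given with the sites found in both. The median log2 fold change of the dynein clusters was 0.76 in replicate 1 and 0.85 in replicate 2, against 1.50 and 1.53 over all clusters. A −log10 P of 0, which the tables list where the IP was below the SMInput or only slightly above it, was found for 26.0% and 19.8% of the dynein clusters and for 10.6% and 7.52% of all clusters.

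Coding sequence held more of the dynein clusters than of all clusters. In replicate 1, 745 clusters or 47.2% (44.8% to 49.7%) had their centre in coding sequence (CDS), against 26.4% of all clusters. In replicate 2 these were 651 clusters or 54.9% (52.1% to 57.7%), against 33.7%. With all annotated transcripts in place of the basic ones, the shares were 31.4% (29.1% to 33.7%) against 22.9% in replicate 1 and 35.4% (32.8% to 38.2%) against 29.1% in replicate 2. Very few of them were called, 9 in replicate 1 (1.21%, 0.637% to 2.28%) and 6 in replicate 2 (0.922%, 0.423% to 2.00%), where 5.27% and 7.94% of all coding clusters were called. Their median log2 fold change was 0.11 and 0.29, against 0.76 and 0.93 for all coding clusters. That pooled median leans on 3 genes, since Dnah8, Dnah17 and Dnah2 gave 197, 125 and 77 of the 745 in replicate 1. By gene, 6 of 9 dynein genes in replicate 1 and 5 of 9 in replicate 2 lay below the median gene (0.66 and 0.76) among those with at least 20 coding clusters. A −log10 P of 0 was listed for 46.3% and 32.9% of the dynein coding clusters, against 22.4% and 14.8% of all coding clusters.

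Introns gave the other large share, with 822 dynein clusters in replicate 1 and 524 in replicate 2. Of these, 20 were called in replicate 1 (2.43%, 1.58% to 3.73%) and 54 in replicate 2 (10.3%, 7.98% to 13.2%), and the shares over all intron clusters, 1.94% and 10.8%, lay inside both intervals. The median log2 fold change in introns was 1.50 and 1.59, against 2.08 and 1.85 for all intron clusters. Untranslated regions added little, with 7 and 6 clusters in 3′UTRs, of which 1 and 0 were called, and 4 clusters per replicate in 5′UTRs, of which 1 and 0 were called. The called 3′UTR cluster (chr7:105684299-105684401, plus strand) is in the 3′UTR of a shorter transcript of Dnhd1, lies in intron 15 of the reference transcript and also falls in the gene Gm45799. Over all genes, 3′UTRs held 11.0% and 14.0% of the clusters, against 0.444% and 0.506% in the dynein genes. Some of these genes have little annotated untranslated sequence. In the reference transcripts, 12249 of 12252 bases of Dnah3 and 12204 of 12314 of Dnah7b are coding, against 13443 of 14973 for Dnah17. Clusters past the annotated end of a gene were not given to it. How far this lowers the 3′UTR share was not tested. Of all 3′UTR clusters 19.4% and 34.4% were called, and of all 5′UTR clusters 5.09% and 8.63%. If all clusters are weighted to the regions of the dynein clusters, 3.60% and 9.32% would be called, or 56.8 and 110 clusters in place of the 31 and 60 counted.

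**Figure D1:**
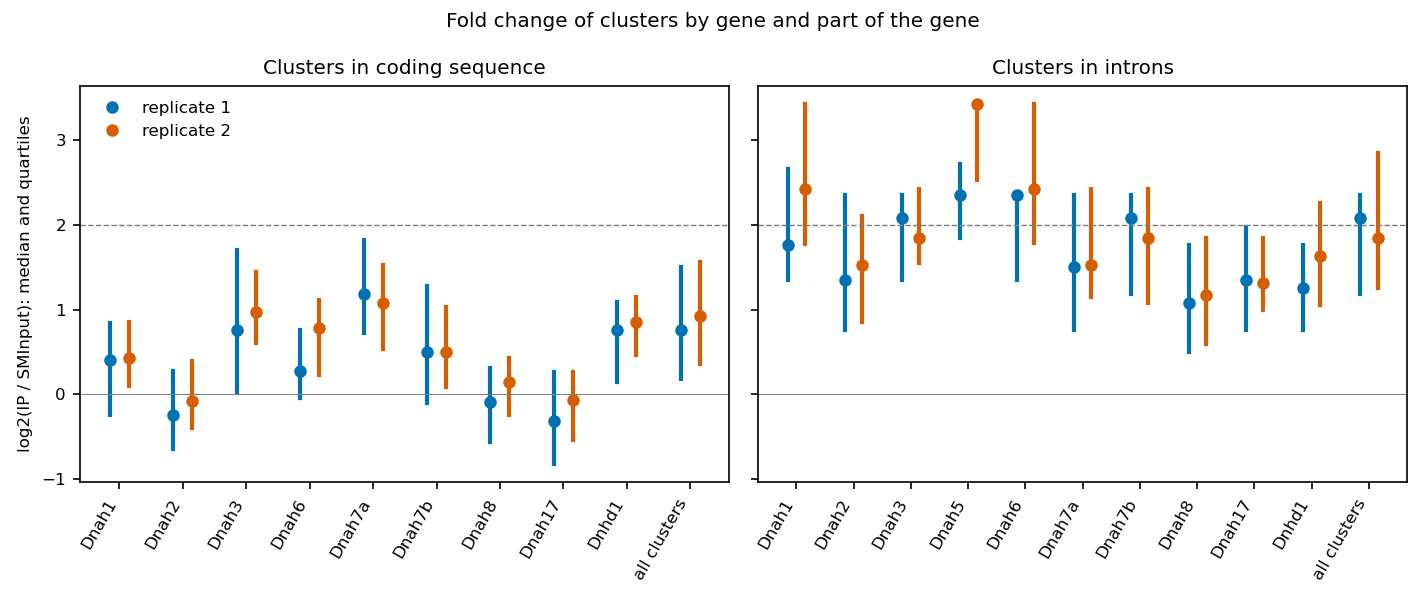
Median (point) and quartiles (line) of the log2 fold change of IP over SMInput for the clusters of each dynein heavy chain gene and for all clusters, in coding sequence (left) and in introns (right), in replicate 1 (blue) and replicate 2 (orange). Coding medians of Dnah2 and Dnah17 lie below 0 in both replicates, that of Dnah8 is −0.09 and 0.14, and the dashed line marks the threshold of 2.

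The low share of called coding clusters was set against read depth, since the reads behind each cluster could be worked out from the listed values. The smallest SMInput number recovered was 1, in 34.4% and 12.4% of all clusters with recovered reads, and every listed log2 fold change was finite. A 1 may therefore also stand for 0 reads, which the tables do not show, and fold changes given below with 1 SMInput read are lower bounds where it does. A cluster with 1 SMInput read needed 7 IP reads to be called in replicate 1 and 4 in replicate 2, and one with 10 SMInput reads needed 24 and 12. Too few IP reads for a call at 1 SMInput read were held by 65.6% of the dynein clusters with recovered reads in replicate 1 and 20.3% in replicate 2, against 74.2% and 31.3% of all clusters. Among dynein coding clusters with at least 10 SMInput reads, 0 of 158 were called in replicate 1 (Wilson interval up to 2.37%) and 0 of 303 in replicate 2 (up to 1.25%). These clusters were spread unevenly over the genes. Dnah8 gave 75 and 107 of them, Dnah17 30 and 34 and Dnhd1 16 and 41, while Dnah3 gave 2 and 13. Over all genes, 5.09% of 19093 and 5.67% of 34789 coding clusters of that depth were called. The highest log2 fold change among these deep dynein clusters was 1.62 and 1.85, and their medians were 0.44 and 0.49, against 0.76 and 0.85 over all genes. Weighted to the SMInput read classes of the dynein coding clusters, all coding clusters would give 23.8 called of 367 in replicate 1 (6.49%) and 30.8 of 412 in replicate 2 (7.47%). The dynein genes had 9 (2.45%, 1.30% to 4.59%) and 6 (1.46%, 0.669% to 3.14%). Read classes leave out the clusters listed at 0, where reads cannot be recovered, and those above 0 without a single solution. They hold 367 of the 745 dynein coding clusters in replicate 1 and 412 of the 651 in replicate 2.

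**Figure D2:**
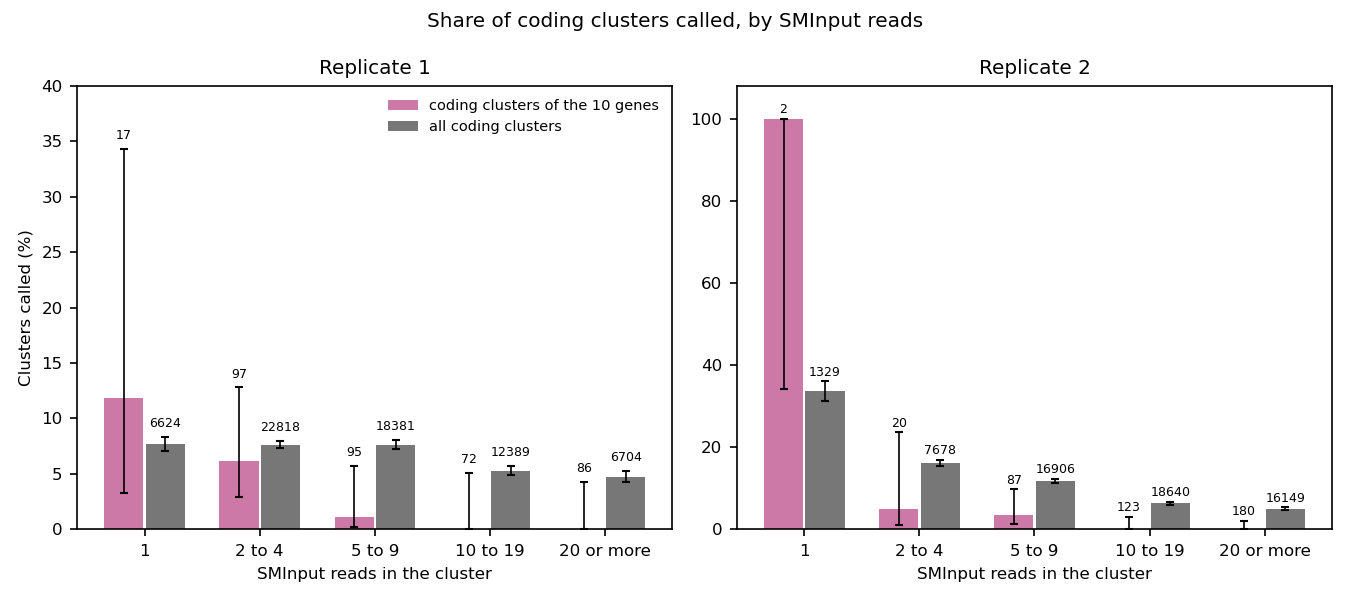
Share of coding clusters called (bars, percent) with 95% Wilson intervals, by the number of SMInput reads in the cluster, for the 10 dynein genes (pink) and all genes (grey), with the number of clusters above each bar; the vertical scales of the replicates differ. From 10 SMInput reads upward, 0 dynein clusters were called in either replicate, where all genes gave 4.74% to 6.31%.

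In introns the same weighting gave the opposite order. From the SMInput reads of the dynein intron clusters, all intron clusters would give 14.6 called of 747 in replicate 1 (1.96%) and 39.6 of 505 in replicate 2 (7.85%). The dynein introns had 20 (2.68%, 1.74% to 4.10%) and 54 (10.7%, 8.29% to 13.7%), and the weighted share lies inside the interval in replicate 1 and below it in replicate 2. Deep dynein intron clusters were few and had no calls, and the shares over all genes lie inside their intervals. At 10 to 19 SMInput reads 0 of 29 and 0 of 89 were called (Wilson intervals up to 11.7% and 4.14%). Of all intron clusters of that depth 1.87% and 1.25% were. At 20 or more it was 0 of 1 and 0 of 19 (up to 79.3% and 16.8%), against 2.33% and 2.86%.

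Of the outer arm heavy chains, Dnah8 and Dnah17 are those of the sperm tail, and Dnah5 is the chain of airway and other cilia. Dnah8, at chr17:30624354-30877365 on the plus strand (mm10), had the most clusters of the 10 genes, 399 in replicate 1 and 329 in replicate 2. Its coding clusters covered 82.0% and 81.5% of 14193 coding bases, and the SMInput reads in those with recovered reads came to 212 and 567 per kilobase of coding sequence. Such a level in bulk testis cannot tell RNA per cell from the number of cells. None of the 197 and 188 coding clusters of Dnah8 was called. Their median log2 fold change was −0.09 and 0.14, and 54.8% and 37.8% of them were listed at a −log10 P of 0. Among 75 and 107 coding clusters of Dnah8 with at least 10 SMInput reads, the highest log2 fold change was 1.53 and 1.68. All 8 called clusters of Dnah8 in replicate 1 and all 16 in replicate 2 lay in introns. The ones with the most IP reads were in intron 1 in replicate 1, at chr17:30632404-30632445 (log2 fold change 2.25, 14 IP and 5 SMInput reads), and in intron 68 in replicate 2, at chr17:30775883-30775970 (3.96, 13 IP and 3 SMInput reads). The latter is mostly masked repeat and shares runs of 30 bases with other dynein heavy chain genes.

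Dnah17, at chr11:118021723-118130634 on the minus strand, was like Dnah8 in having calls in introns alone. It had 191 and 138 clusters, its coding clusters covered 54.0% and 50.4% of the coding bases, and SMInput reads in those with recovered reads came to 51.0 and 96.1 per kilobase. Of 125 and 97 coding clusters, 0 were called, and the median log2 fold change was −0.32 and −0.07. In replicate 1, 82 of the 125 had a negative log2 fold change, and in replicate 2 it was 53 of 97. Its 3 called clusters in replicate 1 and 1 in replicate 2 were in introns, led by intron 8 in replicate 1 (chr11:118122456-118122521, log2 fold change 2.64, 11 IP and 3 SMInput reads) and intron 65 in replicate 2 (chr11:118042821-118042861, 4.17, 5 IP reads and 1 SMInput read). Dnah5, the chain of respiratory cilia, had 3 clusters in each replicate over its span of 268 kilobases, all in introns and none called, and 0 coding clusters.

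Ranking placed these sperm tail chains low among genes. Among 1020 genes with at least 20 coding clusters in replicate 1 and 764 in replicate 2, 2.45% and 4.45% had a lower coding median than Dnah17, and 5.49% and 11.0% had a lower one than Dnah8.

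Dnah2 is the heavy chain of a double-headed inner arm, and its coding clusters were also low. It had 77 and 67 of them, with a median log2 fold change of −0.24 and −0.08, and 2.75% and 4.06% of genes ranked below it. The SMInput reads of Dnah2 came to 16.1 and 36.8 per kilobase of coding sequence in the 25 and 27 coding clusters with recovered reads. These leave out the 46 and 37 listed at a −log10 P of 0 and a few others without a single solution. Calls numbered 2 of 150 clusters in replicate 1 and 8 of 116 in replicate 2, and 1 of these, in exon 3 in replicate 2 with 4 IP reads and 1 SMInput read, was coding. Dnah1, an inner arm chain whose loss leaves malformed tails, had 67 and 51 coding clusters with medians of 0.41 and 0.43, and 0 were called. It had 0 called clusters of 85 in replicate 1 and 2 of 65 in replicate 2, both in introns, the one with more IP reads in intron 73 at chr14:31262595-31262646 on the minus strand (log2 fold change 2.33, 7 IP and 5 SMInput reads).

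Dnah3 and Dnah6 encode chains of single-headed inner arms. Dnah3 had 119 and 76 clusters, and its coding medians of 0.76 and 0.97 were at or just above those of all coding clusters. Of its 54 and 40 coding clusters 0 were called, where 5.27% and 7.94% of all coding clusters were. Among genes with at least 20 coding clusters, 46.9% and 45.2% likewise had no coding call. Its 3 and 2 called clusters were in introns, in replicate 1 in introns 26 and 39 with 7 IP reads and 1 SMInput read each, and in replicate 2 led by intron 22 (chr7:120046887-120047040, minus strand, log2 fold change 2.43, 9 IP and 6 SMInput reads). Dnah6 had 118 and 76 clusters, with coding medians of 0.28 and 0.78. In replicate 1 its 1 call was at the start of the transcript, in the 5′UTR in exon 1 (chr6:73221553-73221634, minus strand, log2 fold change 2.04, 17 IP and 7 SMInput reads), with no cluster of replicate 2 over it. In replicate 2 it had 1 call in an intron and 1 in exon 67 (chr6:73037679-73037691, 3.85, 4 IP reads and 1 SMInput read).

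Dnah7a and Dnah7b are neighbours in family and sequence, both single-headed inner arm chains on chromosome 1, and with Dnhd1 they held most of the coding calls. Of the coding runs of 30 bases of Dnah7a, 40.4% were also found in the genomic span of Dnah7b, introns included, and 38.9% in that of Dnah7c. The spliced coding sequence of the other gene was not searched. For Dnah7b the shares were 40% with Dnah7a and 45.6% with Dnah7c. Which copy the reads of a shared stretch came from was not tested. Dnah7a had the highest coding medians of the 10 genes in both replicates, 1.19 and 1.08, above 86.7% and 76.3% of genes. In replicate 1, 4 of its 48 coding clusters were called, at codons 566, 588, 1814 and 3917, with 8 to 11 IP reads each. The one with the most IP reads and the smaller SMInput number was in exon 16 (chr1:53627094-53627113, minus strand, log2 fold change 2.64, 11 IP and 3 SMInput reads). In replicate 2, 0 of its 44 coding clusters were called, and its 6 calls were in introns, led by intron 8 (chr1:53649745-53649811, 2.43, 6 IP and 4 SMInput reads).

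Dnah7b had 5 called clusters of 225 in replicate 1 and 18 of 157 in replicate 2, the most calls of the 10 genes in replicate 2. Its coding clusters had a median log2 fold change of 0.50 in both replicates, with 3 of 65 and 3 of 58 called. The coding calls of replicate 1 lay at codons 1439, 1795 and 1902 and those of replicate 2 at codons 1888, 1905 and 4068. Codons 1902 and 1905 are the centres of the same site in exon 36, called in each replicate. With that site counted once, 3 of 5 coding sites were between codons 1795 and 1905, in exons 34 to 36, a stretch picked out after its values were seen. In introns, 2 of 160 and 15 of 99 clusters were called. The one with the most IP reads, in intron 25 in replicate 2 (chr1:46190510-46190623, plus strand, log2 fold change 4.85, 16 IP and 2 SMInput reads), lay next to another called cluster (chr1:46190462-46190509, 5.31, 11 IP reads and 1 SMInput read) and met a cluster of replicate 1 with a log2 fold change of 1.03 that was not called. Runs of 30 bases shared with other dynein heavy chain genes were in 101 and 74 of the clusters of Dnah7b, of which 3 and 10 were called.

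Dnhd1 encodes a protein related to the heavy chains that is needed to build the sperm tail. It had 92 and 87 clusters, 4 and 5 of them called, and coding medians of 0.76 and 0.85. In replicate 1 its coding calls were in neighbouring exons. Exon 23 held a cluster at chr7:105696517-105696564 on the plus strand (log2 fold change 3.18, −log10 P 4.46, 16 IP and 3 SMInput reads), and exon 24 held the called cluster with the most IP reads of any dynein gene, at chr7:105696723-105696775 (2.15, 3.74, 21 IP and 8 SMInput reads). Clusters of replicate 2 lay over both and were not called. The one over the exon 23 cluster had a log2 fold change of 0.46, and of 2 over the exon 24 cluster 1 had 0.85. Its coding call of replicate 2 was in exon 43 (chr7:105720847-105720882, 2.43, 9 IP and 6 SMInput reads). The gene Gm45799 runs over part of Dnhd1 on the same strand, and 33 and 34 clusters of Dnhd1, 2 and 3 of them called, lay in both.

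**Figure D3:**
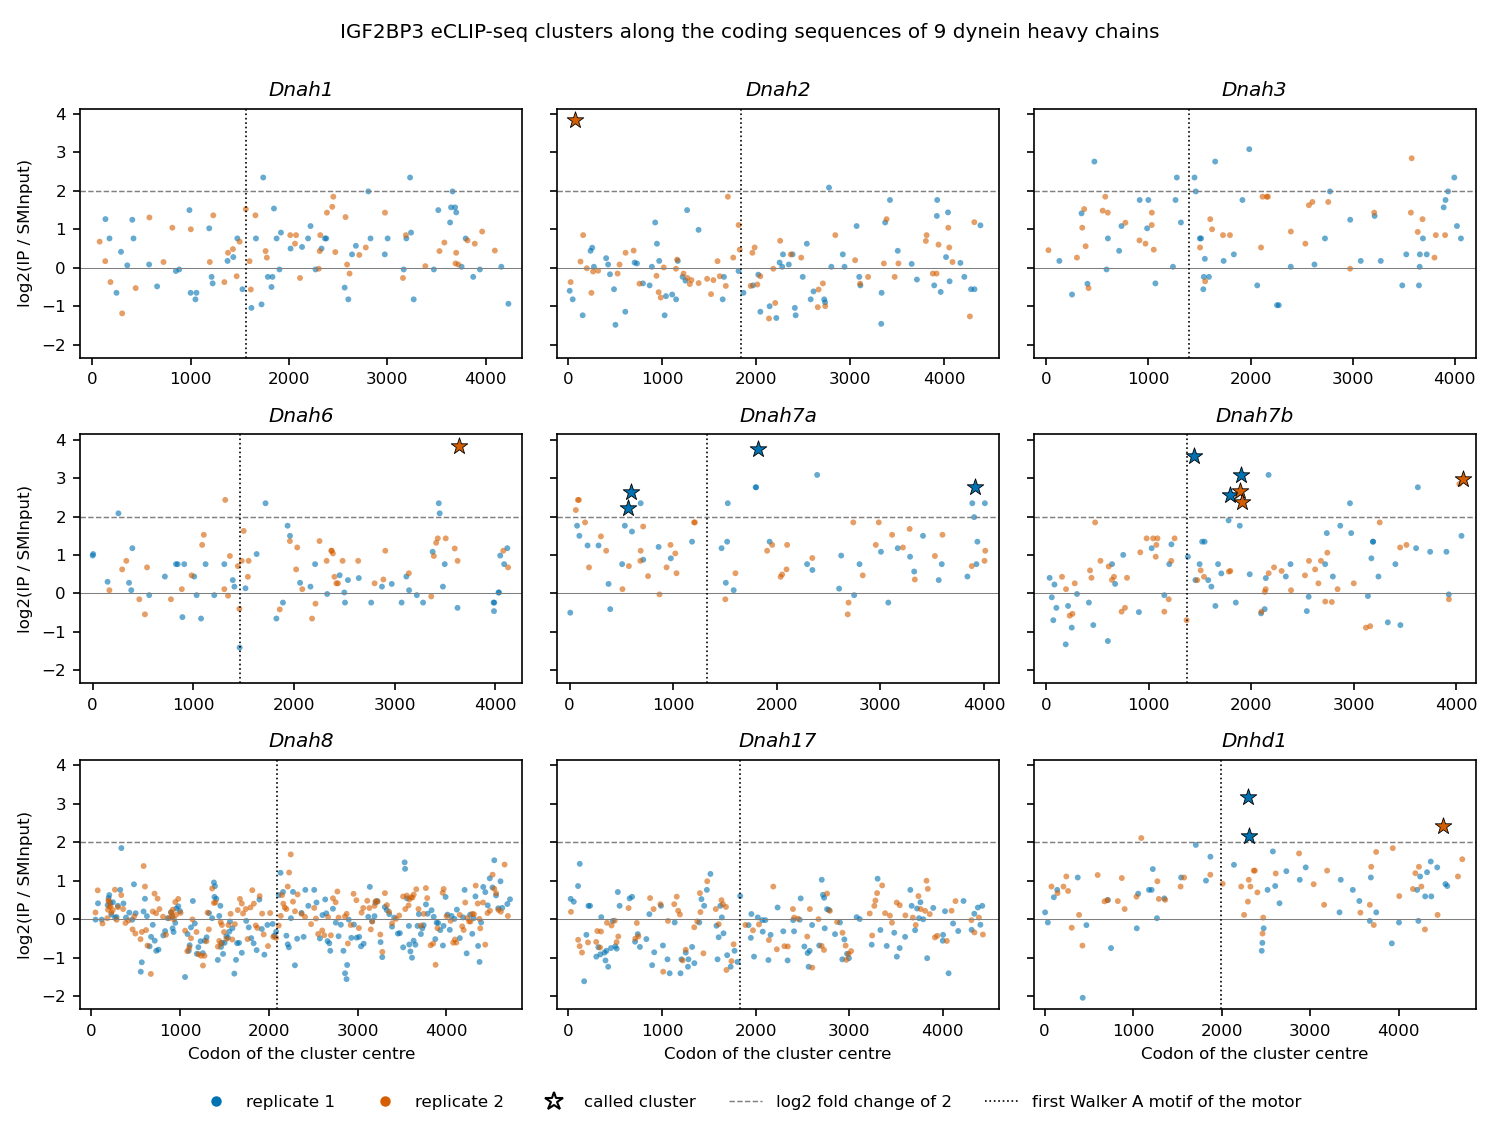
Position (codon of the cluster centre) and log2 fold change of IP over SMInput of each coding cluster with a codon in the reference transcript of 9 dynein heavy chains in replicate 1 (blue) and replicate 2 (orange); stars are called clusters, the dashed line is a log2 fold change of 2 and the dotted line the first Walker A motif of the motor. Dnah5 had 0 coding clusters, and Dnah8 and Dnah17 have none above 2.

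Taken by gene, 8 of the 10 had a called cluster in both replicates, where 39.1% of all 12292 genes with clusters in both did. Dnah1, called in replicate 2 alone, and Dnah5 were the others. Such counts move with the number of clusters of a gene, whose median over all genes was 15 and 10. Among 515 genes with at least 65 clusters in each replicate, the lowest number among the dynein genes other than Dnah5, 92.6% were called in both, against 8 of the 9 dynein genes, a comparison added after the data were seen. For coding calls alone, 6 of 9 dynein genes in replicate 1 and 5 of 9 in replicate 2 had none, beside 46.9% and 45.2% of genes with at least 20 coding clusters. Genes other than the 10 with coding sequence of at least 9001 bases, a class also chosen after the data were seen, had 4.11% and 5.87% of their coding clusters called.

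Only 2 sites were called in both replicates, with at least 1 base in common. The coding one is in exon 36 of Dnah7b, at chr1:46219320-46219391 in replicate 1 (log2 fold change 3.08, −log10 P 4.10, 15 IP and 3 SMInput reads) and chr1:46219321-46219408 in replicate 2 (2.38, 3.80, 13 IP and 9 SMInput reads), with 71 bases in common. It shares runs of 30 bases with Dnah7a and Dnah7c. The other is in intron 15 of Dnah2 on the minus strand, where the cluster of replicate 2 (chr11:69498318-69498371, log2 fold change 5.94, −log10 P 10.11, 17 IP reads and 1 SMInput read) lies inside that of replicate 1 (chr11:69498290-69498390, 2.03, 2.04, 12 IP and 5 SMInput reads). As a share of the called dynein clusters, those also called in the other replicate were 6.45% (1.79% to 20.7%) in replicate 1 and 3.33% (0.919% to 11.4%) in replicate 2, against 33.0% and 18.5% over all called clusters. A cluster of the other replicate, called or not, lay over 7 of the 31 and 11 of the 60. The same count over all called clusters is not given, but its share cannot be below the 33.0% and 18.5% also called in the other replicate.

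A paired test, added after the data were seen, used the log2 ratio of IP to SMInput of each replicate for all overlapping clusters, with the spread pooled across them by limma. Its call was a mean log2 fold change of at least 2 at an adjusted p of at most 0.05, and 16.4% of 83829 overlapping clusters over all genes passed. Of the 586 of the dynein genes, 17 passed (2.90%). In coding sequence 3 of 476 passed (0.630%), against 8.27% of all, and in introns 13 of 103 (12.6%), against 20.9%. All 3 coding ones were in Dnah7b, led by the site in exon 36, with a mean log2 fold change of 2.73 (adjusted p = 1.43e-05 from limma, above 0 in 2 of 2 replicates). The lowest adjusted p of the dynein genes was in intron 30 of Dnah7a, at chr1:53542941-53543031 on the minus strand, a site named after its values were seen. Its log2 fold changes were 3.35 and 3.43, with a mean of 3.39 (adjusted p = 6.24e-07 from limma, above 0 in 2 of 2 replicates), from 6 and 3 IP reads and the smallest SMInput number, 1, in each, and it was called in neither replicate. These fold changes are lower bounds if the 1 stands for 0, and 3.43 is the value of all 38 dynein clusters of replicate 2 with 3 IP reads and 1 SMInput read, so the p is no measure of their precision. Of the 17 dynein sites that passed, 10 had an SMInput number of 1 in at least 1 replicate, among them the Dnah2 site that follows, as did 27.7% of all that passed. The site in intron 15 of Dnah2 had a mean of 3.98 (adjusted p = 2.41e-06 from limma, above 0 in 2 of 2 replicates). The fit takes the fold changes as they are listed and gives no weight to the reads behind them.

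The mm10 sequences of both sites, and of the coding calls of Dnhd1 with the most IP reads, show what IGF2BP3 IP reads covered there, read 5′ to 3′ on the strand of the gene. Capitals mark the bases shared by clusters called in both replicates. The Dnhd1 clusters, called in replicate 1 alone, are in lower case throughout, although clusters of replicate 2 that were not called lay over them. The Dnah2 site was added after its values were seen.
Dnah7b, chr1:46219320-46219408, plus strand: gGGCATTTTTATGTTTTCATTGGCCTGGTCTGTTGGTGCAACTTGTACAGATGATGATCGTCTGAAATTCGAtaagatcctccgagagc
Dnhd1, chr7:105696723-105696775, plus strand: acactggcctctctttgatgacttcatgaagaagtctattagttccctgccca
Dnhd1, chr7:105696517-105696564, plus strand: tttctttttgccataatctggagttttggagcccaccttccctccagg
Dnah2, chr11:69498290-69498390, minus strand: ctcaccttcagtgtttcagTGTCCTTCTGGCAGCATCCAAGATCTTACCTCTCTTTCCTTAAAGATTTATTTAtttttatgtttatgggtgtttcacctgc
The Dnah7b site is 43.8% G and C and the Dnah2 site 38.6%. GGACT and TGGAC, forms of the m6A consensus, and GAACA and AAACC were searched on the printed strand, and none is in the 4 sequences, which says only that these letters are not in these windows.

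Called dynein clusters rested on few reads. Their median number of IP reads was 9 in replicate 1 and 6 in replicate 2, against 13 and 8 over all called clusters, and 51.6% and 81.7% of them had fewer than 10. The smallest SMInput number, 1, which may stand for 0 reads, lay under 10 of the 31 and 19 of the 60. The highest −log10 P was 4.46 in replicate 1 and 10.11 in replicate 2.

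Across the replicates, the fold changes of the dynein clusters moved together although the calls seldom met. Of the coding clusters, 63.9% in replicate 1 and 70% in replicate 2 had a cluster of the other replicate over them, and of the intron clusters 12.5% and 18.7%. All genes gave 46798 coding pairs for 89186 coding clusters of replicate 1, and 13828 intron pairs for 194413 intron clusters. Over the 586 pairs of overlapping dynein clusters, Pearson's r between the log2 fold changes was 0.492 and Spearman's rho was 0.481. Over the 476 coding pairs r was 0.417 and rho 0.384, and over 103 intron pairs 0.288 and 0.334. These are correlations across clusters of 10 genes in the same libraries, and clusters are not independent replicates. No value over all clusters is given beside them or beside the counts that follow. Both members of 112 coding pairs had a log2 fold change below 0, and both were above 1 in 21.

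Along the protein, coding clusters fell both in the tail and in the motor. The first Walker A motif, the ATP-binding loop of the first motor unit, was found at residue 1328 in Dnah7a to 2087 in Dnah8. Before it lay 298 coding clusters in replicate 1 (6.68 per kilobase) and 283 in replicate 2 (6.34), and after it 447 (6.18) and 367 (5.07). A Dnah3 cluster of replicate 2 (chr7:119967408-119967427, minus strand), coding in another transcript but in intron 47 of the reference transcript, has no codon there and is left out of these counts. The calls were 2 and 7 in replicate 1 and 1 and 5 in replicate 2, and the median log2 fold changes −0.01 and 0.18 in replicate 1 and 0.19 and 0.41 in replicate 2. These medians pool genes that differ in level. For Dnah3 (1.03 and 0.35, then 1.04 and 0.97) and Dnah7a (1.25 and 1.08, then 1.11 and 0.95) the part after the motif had the lower median in both replicates, and for Dnah2 and Dnah6 it did in replicate 1. Each coding sequence was also divided into 10 equal parts. The fifth part, with 74 and 60 clusters, held 5 of the 9 calls in replicate 1 and 2 of the 6 in replicate 2. All were from Dnah7a, Dnah7b and Dnhd1, and the Dnah7b site in exon 36 counts in each replicate. In replicate 2 the last part, with 50 clusters, also held 2 calls. The fifth part was picked out after its values were seen, and no share over all genes is given beside it.

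Motifs were counted in windows of 100 bases around the cluster centres. TGGAC was in 18.9% (16.2% to 21.9%) of the coding windows of the dynein genes that were not called in replicate 1 and in 18.6% (15.8% to 21.8%) in replicate 2, against 13.1% and 13.3% of all coding windows not called. It was in 0 of the 9 called coding windows of replicate 1 (Wilson interval up to 29.9%) and 1 of the 6 of replicate 2 (3.01% to 56.4%). For GGACT these shares were 10.1% and 10.9% in the dynein genes and 9.49% and 9.75% over all genes, and for GAACA 10.5% and 9.61% against 11.4% and 11.3%. GAACA was likewise in 0 of the 9 and 1 of the 6 called coding windows, the latter the same Dnah7b cluster as for TGGAC (chr1:46373359-46373514), and GGACT and AAACC were in 0 of either. A match is not a bound site.

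Of the called intron clusters of the dynein genes, 1 of 20 in replicate 1 and 3 of 54 in replicate 2 lay within 100 bases of an exon. Over all called intron clusters these shares were 12.2% and 9.76%, inside the wide intervals of the dynein shares (0.888% to 23.6% and 1.91% to 15.1%). The median distance to an exon was 914 and 1106 bases for the called dynein clusters, 942 and 860 bases for the other dynein intron clusters, and 1412 and 1673 bases for all called intron clusters. Masked repeats made up most of the window of 45.0% (25.8% to 65.8%) of the called and 30.4% of the other dynein intron clusters in replicate 1, against 25.8% of all called ones. In replicate 2 these were 38.9% (27.0% to 52.2%), 38.9% and 30.7%.

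Other genes of dynein arms and of their assembly were listed by name and 40 of 42 had clusters in both replicates. Of these 40, 19 had a called cluster in both (47.5%, 32.9% to 62.5%), beside 39.1% of the 12292 genes with clusters in both. Of 6 other axonemal heavy chains these were Dnah10 (1 and 6 called clusters), the partner of Dnah2 in its inner arm, and Dnah12 (5 and 5), a single-headed chain. Over the 6 genes of the list, 3 of 149 and 4 of 125 coding clusters were called (2.01% and 3.20%), beside 5.27% and 7.94% of all coding clusters. Calls this few do not settle the order. Of the 2 cytoplasmic heavy chains, Dync2h1, the motor of transport inside cilia, had 1 and 8 calls. Dync1h1, the general cytoplasmic motor, had 0 and 1 calls of 124 and 110 clusters, with median log2 fold changes of 0.19 and 0.18. Intermediate and light chains had a called cluster in both replicates in 7 of 12 genes, by most calls Nme8 with 5 and 1, the others having 1 or 2 in each replicate. The docking complex, which fixes outer arms to the doublet, had 1 of 6, Armc4 with 1 and 7. Assembly factors, which fold and join the arms in the cytoplasm, had 8 of 16, with Cfap300 at 7 and 7 calls, Dnaaf5 at 5 and 8, Lrrc6 at 3 and 6, and Dnaaf2 at 4 and 2. Assembly factor clusters were called at 9.23% and 15.7%, beside 4.92% and 13.2% of all clusters. Their coding clusters were called at 6.21% and 4.55%, beside 5.27% and 7.94% of all coding clusters, above in replicate 1 and below in replicate 2. Among the marker genes of spermatids, the outer dense fibre gene Odf1 had 11 of 18 and 8 of 12 clusters called and the sheath gene Akap4 3 of 20 and 7 of 21. The other 4 spermatid genes, Prm1, Prm2, Tnp1 and Tnp2, which encode protamines and transition proteins, had 0 called clusters in either replicate.

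Other call rules changed the counts and left the dynein coding share below that of all coding clusters. With both thresholds at 3, 4 and 7 dynein clusters were called (0.253% and 0.591%), against 1.18% and 2.42% of all clusters, and 2 and 0 of them were coding. A log2 fold change of at least 1 gave 41 and 81 (2.60% and 6.84%), against 7.24% and 18.4%, and in coding sequence 2.01% and 2.92%, against 9.76% and 16%. P values adjusted by the Benjamini-Hochberg method to at most 0.05 gave 12 and 43 (0.760% and 3.63%), against 3.24% and 10.4%, and in coding sequence 0.671% and 0.614%, against 3.76% and 7.28%. Of clusters with at least 10 IP reads, 15 of 212 and 11 of 205 dynein clusters were called (7.08% and 5.37%), against 25.2% and 27.7%. In coding sequence that last rule gave 3.66% and 1.17%, against 15.9% and 15.8%. In introns it gave 7 of 43 and 9 of 31, or 16.3% and 29.0%, against 28.5% and 23.7%, so that the order in introns differed between the replicates.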

How the data were processed

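The data are IGF2BP3 eCLIP-seq of testis from 2 replicates, with an IP and an SMInput library in each. The authors removed adapters with cutadapt and ribosomal RNA reads with Bowtie2, aligned the rest with STAR to mm10 and deposited a table of clusters for each replicate. Per cluster, the deposited −log10 P compares IP reads with SMInput reads, with 0 for clusters that were depleted or barely enriched and a cap of 400. Each deposited log2 fold change is the authors' quotient of IP reads over SMInput reads after division by the usable reads of either library. The deposited tables give no read numbers, which were recovered here as the whole numbers that return both listed values, to a tolerance of 0.0001. P came from a chi-square test with Yates' correction. Where an observed number or the smaller expected number of reads was below 5, it came from Fisher's exact test.

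Totals were searched with those of an earlier analysis of these data known, and multiples of the same fraction were told apart by the number of solutions and then by the median relative deviation of P. This gave 5133438 IP and 8706391 SMInput reads in replicate 1 and 4637612 and 16696122 in replicate 2. A single solution was found for 98.8% and 99.1% of clusters listed between 0 and 400, and other clusters were left out where read numbers were used. The recovery was tested on simulated data. Positions were made 1-based, and 0 clusters ran past the end of a chromosome of GRCm38. Regions came from basic GENCODE M21 transcripts at the cluster centre, and where transcripts differed 3′UTR took precedence over CDS, CDS over 5′UTR, and exons over introns. Motifs were read in windows of 100 bases. Masked repeats were read over the bases of the cluster itself, masked meaning at least 50% of them. Walker A motifs were found in the translated reference transcripts. Shares have 95% Wilson intervals. Overlapping clusters of both replicates were also fitted as paired log2 ratios with limma 3.58.1 in R 4.3.3, with p-values adjusted over all of them. The members and lists were chosen with earlier results of these data known.

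All 10 genes are named, with every site called in both replicates and, for each gene and replicate, the called cluster with the most IP reads. From each list, at most 4 genes called in both replicates are named, those with the most calls. Dync1h1, the marker genes and the further coding calls of Dnah7a, Dnah7b and Dnhd1 were named after their values were seen. Sequences printed are coding sites called in both replicates and the called coding clusters with the most IP reads, and the Dnah2 intron site called in both replicates was added after its values were seen. Alternatives changed the call thresholds, the reads needed, the rule that gives a cluster its gene, the region order, the transcripts and the overlap. Python 3.11.15, pandas 2.3.3, NumPy 2.4.6, SciPy 1.17.1 and matplotlib 3.10.9 were used.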

Additional observations from a re-analysis of the deposited data

How the results depend on the processing

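Of 77 alternatives to the 12 main values, 44 kept their value within the error or within 1.5 times the count and 33 moved it. With both thresholds at 3, the called clusters fell to 4 and 7 (0.253% and 0.591%), genes called in both replicates to 2, sites called in both to 0, pairs of gene and replicate with a call from 17 to 6, and listed pathway genes called in both from 19 to 3. A log2 fold change of at least 1 moved the share in replicate 2 to 6.84%. Adjusted P values gave 12 called clusters in replicate 1, shares of 0.760% and 3.63%, 5 genes and 1 site. At least 10 IP reads gave 15 and 11 called clusters, a share of 7.08% in replicate 1 and 3 genes; clusters without recovered reads are then not counted. Centres inside an exon alone gave 11 and 6 called clusters, a share of 0.908% in replicate 2, 3 genes, 1 site, medians of 0.12 and 0.30 and a CDS share of 98.5% in both replicates, which follows from leaving out the introns. Clusters given to the nearest start site of a transcript, whatever its strand, gave 17 and 21 called. With all transcripts, the CDS share was 31.4% and 35.4%. Without Dnah7a and Dnah7b, a choice made after seeing the data, 36 called clusters were left in replicate 2. The causes of the other changes were not tested. Without either replicate, the genes called were 8 to 9 and the listed pathway genes 21 to 28. With the replicate as a block, in the paired fit of overlapping clusters added after seeing the data, 17 dynein sites passed in place of 2. That fit differs from the main rule in the P value, in the mean fold change and in not asking for a call in each replicate, and which of these moved the count was not tested. Depth limits the calls at clusters with fewer than 7 IP reads in replicate 1 and 4 in replicate 2.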
